A study of Brassica rapa and Brassica rapa x Brassica nigra and Brassica nigra with 18 samples.

Results

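This account concerns 58 genes, of 79644 gene identifiers counted, that were detected in anthers of a Brassica allohaploid while both parental species had next to no reads for them at the same stage. A gene was chosen if AB, the allohaploid, averaged at least 5 CPM (counts per 1000000 counts of the library) over its 3 libraries and each parent had at most 3 counts summed over its 3 libraries. The rule was applied at meiosis and at mitosis on their own. It chose 48 genes at mitosis, called mitosis members here, and 26 at meiosis, called meiosis members, and 16 of these were chosen at both stages.

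The plants were the AB allohaploid, listed as Brassica juncea and made with Brassica rapa as mother and Brassica nigra as father, and the parental species B. rapa (genome AA) and B. nigra (genome BB). Messenger RNA of anthers was measured at mitosis, the later period in which microspores become pollen, and at meiosis, when spore mother cells divide, in 3 libraries for each of the 6 combinations. The 18 libraries held between 9782001 and 12161111 counts. The labels repeat the cross on every sample and give neither plant ages nor the number of plants behind a library, so the p-values here measure only the spread between libraries, which may be technical. All values come from whole anthers, in which fewer cells of a type and less RNA per cell cannot be told apart.

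An allohaploid carries one chromosome set of each parent species, and at meiosis its chromosomes lack a matching partner. When the genomes of different species meet in one nucleus, many genes keep a level near that of a parent and others leave the parental range. Genes that are read in the hybrid and silent in both parents are the extreme case of such a departure. Anthers are a mixture of the pollen lineage and of wall layers, among them the tapetum, which feeds the developing pollen and then breaks down.

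The choice itself rests on measured values and is described without a test. Of the 48507 genes that passed a filter on low counts, 0.099% met the rule at mitosis and 0.0536% at meiosis. All 58 members passed that filter, through the AB libraries in which they were chosen to be high. Their names are not known here, because none of the identifiers (0 of 79644) was found in the reference table of 51589 B. rapa genes. Markers of the anther or of its stages could not be checked for the same reason. The members are therefore described by identifier, by the genome that the identifier names and by their levels.

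The parental values of the members were close to the floor of the measurement. Where the 3 libraries of a parent summed to 0, up to 3 counts remain possible from counting error alone, which is 0.0855 to 0.0982 CPM in the 4 parental groups. At mitosis 40 of the 48 mitosis members were at 0 in AA and 38 were at 0 in BB. At meiosis 11 of the 26 meiosis members were at 0 in AA and 21 in BB. All 3 AB libraries reached 5 CPM in 43 of the 48 mitosis members and in 23 of the 26 meiosis members.

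**Figure D1:**
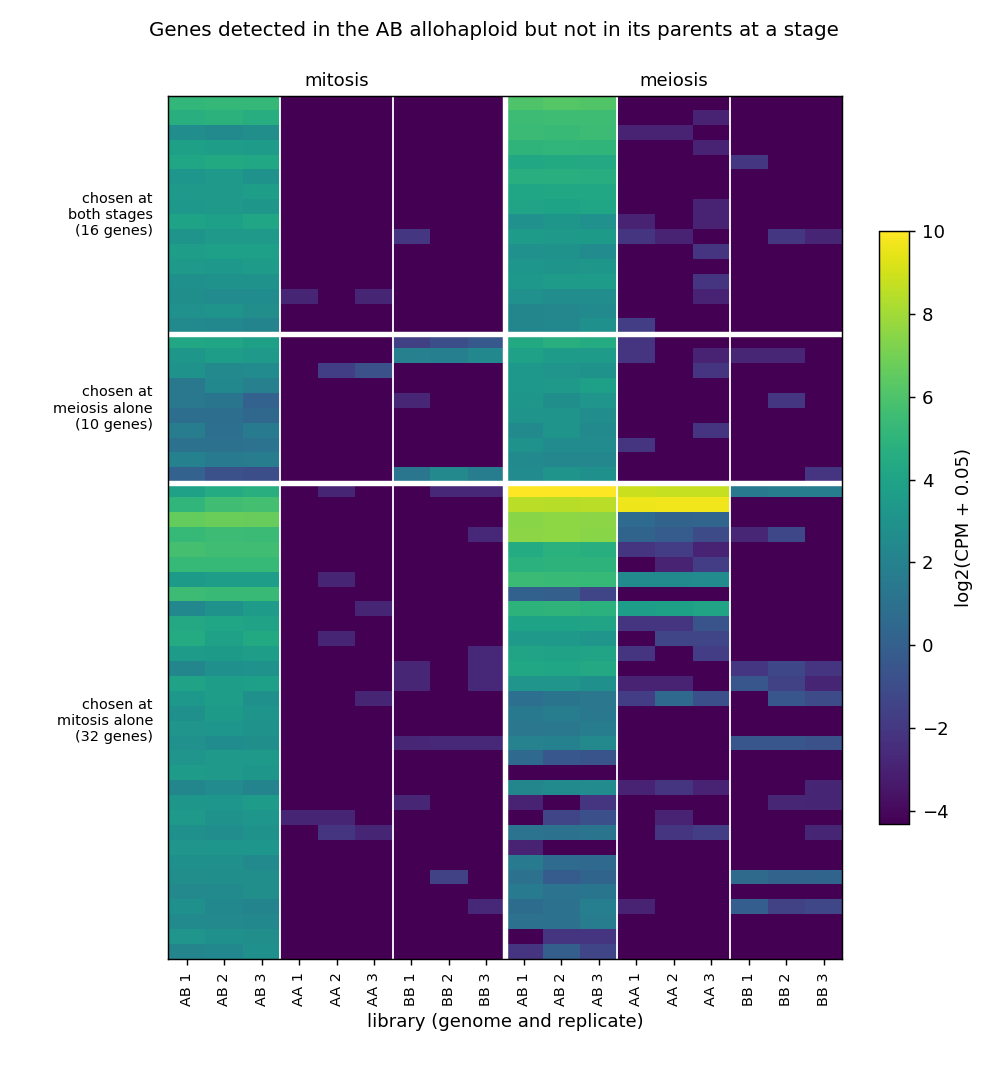
Colour gives log2(CPM + 0.05) of the 58 members (rows) in the 18 libraries (columns), with mitosis on the left, meiosis on the right and the rows grouped by the stage at which the rule was met. Dark cells are at or near 0 counts. The 3 AB columns of a choosing stage are bright in every row, and a few genes chosen at mitosis alone are also bright in AA at meiosis.

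The genes at the edge of the rule were as follows. BjuB015582, just inside the AB minimum at meiosis, averaged 5.05 CPM, and BjuB014770, just outside, averaged 4.52 CPM, both with 0 parental counts. At mitosis BjuB046331 was just inside at 5.05 CPM and BjuB014167 just outside at 4.69 CPM. For the parental limit at meiosis, BjuO007807 was inside with 12.6 CPM in AB, 3 counts in AA and 2 in BB. BjuO012751 was outside with 31.4 CPM in AB, 0 counts in AA and 4 in BB. At mitosis BjuB026579 was inside with 7.20 CPM in AB and 3 counts in AA, and BjuB021380 was outside with 9.67 CPM in AB and 4 counts in BB.

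In CPM the medians of the members were below those of all genes that AB expressed at the same minimum. The meiosis members had a median of 9.997 CPM, against 16.5 CPM over all identifiers with at least 5 CPM in AB at that stage, and the mitosis members had 9.97 CPM, against 15.4 CPM. The order of the medians was the reverse per length, in FPKM (CPM per kilobase of coding sequence). The meiosis members had a median of 19.6 FPKM, against 16.4 over all 22900 identifiers with at least 5 CPM in AB at that stage. The mitosis members had a median of 15.5 FPKM, against 14.5 FPKM over 25264 identifiers. The spread between AB libraries was somewhat wider for the members, which was neither tested nor matched for their lower CPM. The median coefficient of variation of the 3 AB libraries was 9.94% for the meiosis members. Over all identifiers with at least 5 CPM in AB at meiosis it was 7.50%. For the mitosis members it was 10.3%, against 8.18% over all identifiers with at least 5 CPM in AB at mitosis. Together the 26 meiosis members took 0.0425%, 0.0442% and 0.0435% of the counts of the 3 AB libraries at meiosis. The 48 mitosis members took 0.0759%, 0.0794% and 0.0792% at mitosis.

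Coding length and genome label are not named in the rule, although its limits are on counts that are not scaled by length. Both are given as descriptions of a small list and were not tested. The median coding length was 594 bases for the meiosis members, against 1098 bases over all identifiers with at least 5 CPM in AB at meiosis. It was 799.5 bases for the mitosis members, against 1152 bases. By label, 14 of the 58 members (24.1%) were A genes, 31 (53.4%) were B genes and 13 (22.4%) were unplaced. Of all identifiers with at least 5 CPM in AB at mitosis, 48.5% were labelled A, 44.3% B and 7.24% unplaced, and the shares at meiosis were 48.5%, 44.2% and 7.32%.

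The same rule was also applied with each parent as the detected plant, that is, with at least 5 CPM in that parent and at most 3 counts in each of the other 2 plants. At mitosis it gave 48 genes for AB, 20 for AA and 95 for BB. At meiosis it gave 26 genes for AB, 25 for AA and 111 for BB. At this equal minimum, the number for AB was below that for BB at both stages. AB libraries hold reads of both genomes, and those of a parent of its own alone. An equal minimum is therefore not like for like. With 10 CPM asked of a parent and 5 CPM of AB, BB had 46 genes against 48 for AB at mitosis. At meiosis BB had 66 genes against 26 for AB. AA had 10 genes at each stage. At equal minimums, the number for AB changed its order against AA with the limits. With a limit of 10 counts at 5 CPM it was 57 for AB and 37 for AA at mitosis, and 48 for AB and 71 for AA at meiosis. With a minimum of 2 CPM and 10 counts it was 140 for AB and 158 for AA at mitosis.

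**Figure D2:**
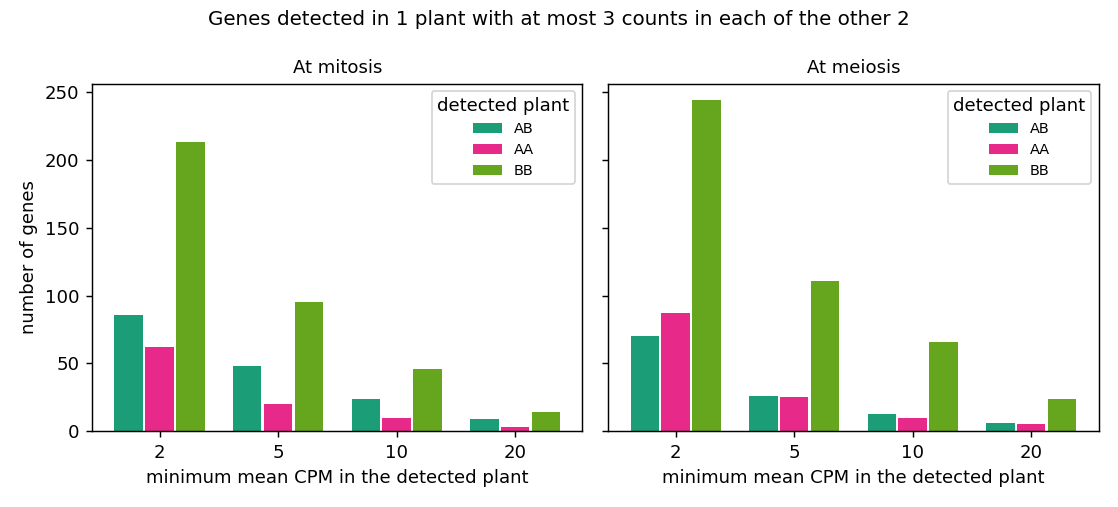
Bars give the number of genes detected in 1 plant, at the minimum mean CPM on the x axis, with at most 3 counts in each of the other 2 plants, at mitosis (left) and at meiosis (right). At 5 CPM the bars at mitosis stand at 48 for AB, 20 for AA and 95 for BB, and those at meiosis at 26, 25 and 111.

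Each set was chosen at its own stage alone, and the rule says nothing of the levels at the other stage. Both sets were therefore tested at the stage that did not choose it, with edgeR's quasi-likelihood test over all 48507 genes and calls at a Benjamini-Hochberg adjusted p under 0.05. The comparisons with AA and with BB share the AB libraries. The members entered the 48507 genes through AB libraries in which they were chosen to be high, and for the 16 genes chosen at both stages the rule had used the values of each stage. The shares over all genes are therefore given as background for the counts, with no test of the set against them.

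Meiosis members stayed above the parents at mitosis almost without exception. All 26 were called higher in AB than in AA, where 50.7% of all genes tested were called higher, and 25 were called higher than in BB, where that share was 50.2%. These shares include genes of the genome that the parent in question does not carry. The call of lower in AB was made for 0 members against AA and 1 against BB, with 30.3% and 34.2% of all genes so called, and for 0 against both, with 0.15% of all genes. Called higher than both parents were 25 of 26 members, with 6.68% of all genes tested so called. Of the 10 members chosen at meiosis alone, 9 were. All 3 AB libraries lay above all 6 parental libraries at mitosis in 25 members, against 7.06% of all genes. The median log2 difference of the members was 9.58 from AA and 9.14 from BB, against 1.42 and 1.10 over all genes tested. A fitted log2 difference against 0 counts depends on the prior count of the fit, so these medians are no measure of fold. Set against 3 counts per group, AB was at least 7.71-fold to at least 405-fold higher for the 24 members at 0 in AA, and at least 16.4-fold to at least 369-fold higher for the 21 members at 0 in BB.

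BjuA031229 was the meiosis member with the highest CPM. Its AB libraries held 35.1, 36.8 and 36.8 CPM at mitosis, against 66.3, 73.6 and 70.3 CPM at meiosis. It had 0 counts in all 12 parental libraries. AB was at least 405-fold higher than AA and at least 369-fold higher than BB at mitosis, with the parents set to 3 counts per group. These values had a part in its choice and carry no test. BjuO007763, which is unplaced, had 25.1, 29.6 and 24.7 CPM in AB at mitosis, against 0 counts in both parents. At meiosis it had 44.7, 46.8 and 47.5 CPM in AB, against 1 count in AA and 0 in BB. Both genes were read in every AB library at both stages, and no AB library overlapped with a parental one. As both were chosen at both stages, the rule nearly fixed this, and it is no finding of its own.

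The exception at mitosis was BjuB038946, named because it was the 1 meiosis member not above both parents. Its AB libraries held 1.07, 0.529 and 0.493 CPM at mitosis, against 2.44, 5.35 and 3.17 CPM in BB and 0 counts in AA. AB was lower than BB on library totals, with a log2 difference of -2.38 (SE 0.41, edgeR adjusted p = 4.48e-06). These totals hold reads of 2 genomes in AB and of 1 in BB. For BjuB038946 a value scaled on B genes alone is not given here. At meiosis, where the rule had chosen it, AB held 5.95, 8.55 and 7.16 CPM, against 2 counts in BB and 0 in AA. It was detected at meiosis in AB and at mitosis in BB. BjuO007807, the meiosis member with the highest BB level at mitosis, had 9.41, 12.3 and 10.1 CPM in AB, against 3.75, 3.57 and 5.01 CPM in BB. The log2 difference from BB was 1.37 (SE 0.21, edgeR adjusted p = 5.34e-07), and AA had 0 counts. BjuA034563, with the highest AA level at mitosis, had 7.73, 5.37 and 5.92 CPM in AB, against 0, 3 and 6 counts in the AA libraries and 0 counts in BB. Its log2 difference from AA was 4.50 (SE 0.43, edgeR adjusted p = 1.12e-10). BjuB047497, singled out after its values were seen as the remaining member above 3 counts in BB, had 213, 193 and 172 counts in the AB libraries at mitosis, against 3, 5 and 7 counts in the BB libraries and 0 counts in AA. In these 3 genes a parent was read at mitosis and each AB library still lay above every parental library.

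No meiosis member averaged 5 CPM over the 3 libraries of a parent at mitosis (0 of 26 in AA and 0 of 26 in BB), although single BB libraries of BjuB038946 and BjuO007807 passed it. Summed over a parent's libraries, above 3 counts were 1 of 26 in AA and 3 of 26 in BB. In AB itself, 19 of the 26 reached 5 CPM at mitosis, against 52.1% of all genes tested, and 16 of the 26 met the whole rule again. The members had been chosen at 5 CPM or more in AB at meiosis and all genes tested had not, so these shares are not like for like.

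**Figure D3:**
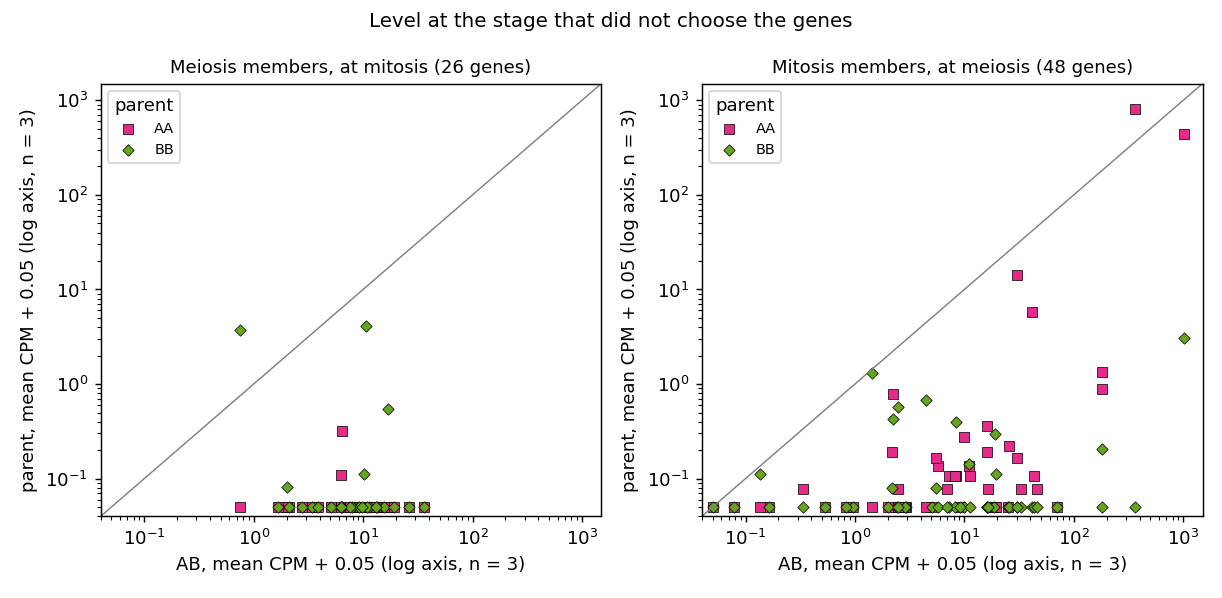
Points give the mean of 3 libraries in AB (x axis) and in a parent (y axis) as CPM + 0.05 on log axes, for the 26 meiosis members at mitosis (left) and the 48 mitosis members at meiosis (right). Points on the bottom edge are parents at 0 counts. One point on the left lies well above the diagonal, the BB value of BjuB038946, and the highest AA points on the right are genes that AA expressed at meiosis.

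Mitosis members were also mostly above both parents at meiosis. Of 48, 44 were called higher in AB than in AA (47% of all genes tested) and 44 higher than in BB (48.4%). Called higher than both were 43, with 5.67% of all genes so called. Of the 32 members chosen at mitosis alone, 27 were. The call of lower in AB was made for 1 member against AA and 0 against BB, with 37.7% and 32.5% of all genes so called, and for 0 against both, with 0.245% of all genes. All 3 AB libraries lay above all 6 parental libraries in 41 members, against 6.12%. The median log2 difference was 6.94 from AA and 8.61 from BB, against 0.40 and 0.81 over all genes tested. In AB 30 of the 48 reached 5 CPM at meiosis, against 47.2% of all genes tested. Unlike all genes tested, these members had been chosen at 5 CPM or more in AB at mitosis.

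The highest level among mitosis members belonged to BjuO007483, with a coding length of 177 bases. It held 99.3, 112 and 102 CPM in AB at mitosis, against 0 counts in both parents. At meiosis it held 174, 186 and 182 CPM in AB, against 1.54, 1.11 and 1.20 CPM in AA and 0 counts in BB. The ratio of AB to AA at meiosis was 141 (95% exact interval 105 to 194, counting error alone). The edgeR adjusted p against AA at meiosis was 1.97e-27. BjuB003420, the B-labelled member with the highest CPM, held 55.2, 48.9 and 49.5 CPM in AB at mitosis, against 0 counts in both parents. At meiosis it held 22.8, 28.6 and 25.3 CPM in AB, against 2, 3 and 1 counts in the AA libraries and 0 in BB. Its only parental reads thus fell in AA, although the identifier names the B genome. BjuA038369 had 0 counts in all 12 parental libraries, and 25.3, 26.01 and 24.04 CPM in AB at meiosis. BjuA005461, singled out after its values were seen, held 38.9, 45.1 and 42.7 CPM in AB at mitosis, against 1 count in BB and 0 in AA. At meiosis it held 179, 186 and 176 CPM in AB, against 14, 10 and 5 counts in the AA libraries and 1, 4 and 0 in the BB libraries. The ratio of AB to AA at meiosis was 218 (95% exact interval 152 to 326, counting error alone).

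Of the 5 mitosis members not called above both parents at meiosis, 3 were nearly unread in AB at that stage. These 5 are named because they are the exceptions. BjuA034402 had 11.4, 10.7 and 9.62 CPM in AB at mitosis, against 0 counts in all 3 AB libraries at meiosis, with 0 counts in all 12 parental libraries. BjuB026482 had 8.70, 8.99 and 9.05 CPM in AB at mitosis, against 1 count at meiosis. BjuO007812 had 9.68, 9.25 and 11.7 CPM in AB at mitosis, against 3 counts at meiosis. These 3 genes were thus detected in AB at mitosis and in no plant above 3 counts at meiosis. BjuB026292 held 2.07, 0.855 and 1.19 CPM in AB at meiosis, against 1.49, 1.14 and 1.18 CPM in BB, with a log2 difference of 0.11 (SE 0.41, edgeR adjusted p = 0.828). This difference is on library totals, which hold reads of 2 genomes in AB and of 1 in BB. A value scaled on B genes alone is not given here. The fifth, BjuA046460, was lower in AB than in AA and is described next.

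Because the rule looked at each stage on its own, a member could be a gene that a parent reads at the other stage. This was so, by the limit of 3 counts, for 23 of the 58 members. At mitosis 1 was above 3 counts in AA and 3 in BB, and at meiosis AA had 14 such genes and BB had 8. The other 35 members stayed within 3 counts in all 4 parental groups. Of these, 32 had more than 3 counts in AB at both stages, and 16 reached 5 CPM at both. They were 5 A-labelled, 21 B-labelled and 9 unplaced genes, against 9, 10 and 4 genes among the 23. All 16 genes chosen at both stages are among the 35 by construction of the rule. A count of 0 in all 12 parental libraries was found in 19 members.

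There were 4 mitosis members, all A-labelled, that AA held at 5 CPM or more at meiosis. In AB the level of each was called lower at mitosis than at meiosis, with 37.2% of all genes tested so called. All members of this group are named, chosen after their values were seen. BjuA046460 held 33.9, 48.3 and 53.7 CPM in AB at mitosis, against 0 counts in both parents. At meiosis it held 363, 356 and 372 CPM in AB, against 792, 813 and 815 CPM in AA. AB was lower than AA at meiosis, with a log2 difference of -1.15 (SE 0.08, adjusted p = 3.31e-13 in edgeR's test). Scaled on A genes alone, the difference was -0.14 and not called. BjuA014117 held 14.6, 22.1 and 24.9 CPM in AB at mitosis, against 1 count in AA and 2 in BB. At meiosis it was the most abundant member, at 1007, 1024 and 1014 CPM in AB, against 468, 434 and 433 CPM in AA and 2.70, 3.14 and 3.18 CPM in BB. Its log2 difference from AA at meiosis was 1.19 (SE 0.07, edgeR adjusted p = 5.04e-16).

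BjuA038087 had 5.15, 7.75 and 11.3 CPM in AB at mitosis, against 1 count in AA, and 30.2, 31.9 and 28.6 CPM in AB at meiosis, against 12.8, 13.8 and 16.1 CPM in AA. Its AB libraries at mitosis differed most among the mitosis members, by 2.20-fold from lowest to highest. BjuA031026 was next in this spread, with 9.77, 12.6 and 7.32 CPM, a ratio of 1.72. BjuA041357 had 11.1, 12.5 and 12.7 CPM in AB at mitosis, against 1 count in AA, and 43.6, 42.5 and 38.6 CPM in AB at meiosis, against 5.65, 5.80 and 5.92 CPM in AA. In AB the mean level at mitosis was 12.5% of that at meiosis for BjuA046460, 2.02% for BjuA014117, 26.7% for BjuA038087 and 29.1% for BjuA041357. In AA 3 counts at mitosis would amount to 0.0111%, 0.0201%, 0.628% and 1.55% of the level at meiosis, in the same order of genes. The rule capped AA and set the AB minimum at mitosis, and these genes were picked for their AA level at meiosis. The direction of this contrast was therefore largely fixed by the choice, and it is no finding of its own. In all 4 genes replicate 1 was the lowest and replicate 3 the highest of the AB libraries at mitosis. How often this order occurred over all genes was not counted. Per the labels, buds of this period ran from tetrads to mature pollen. Whether the AB libraries differed in their buds was not tested.

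**Figure D4:**
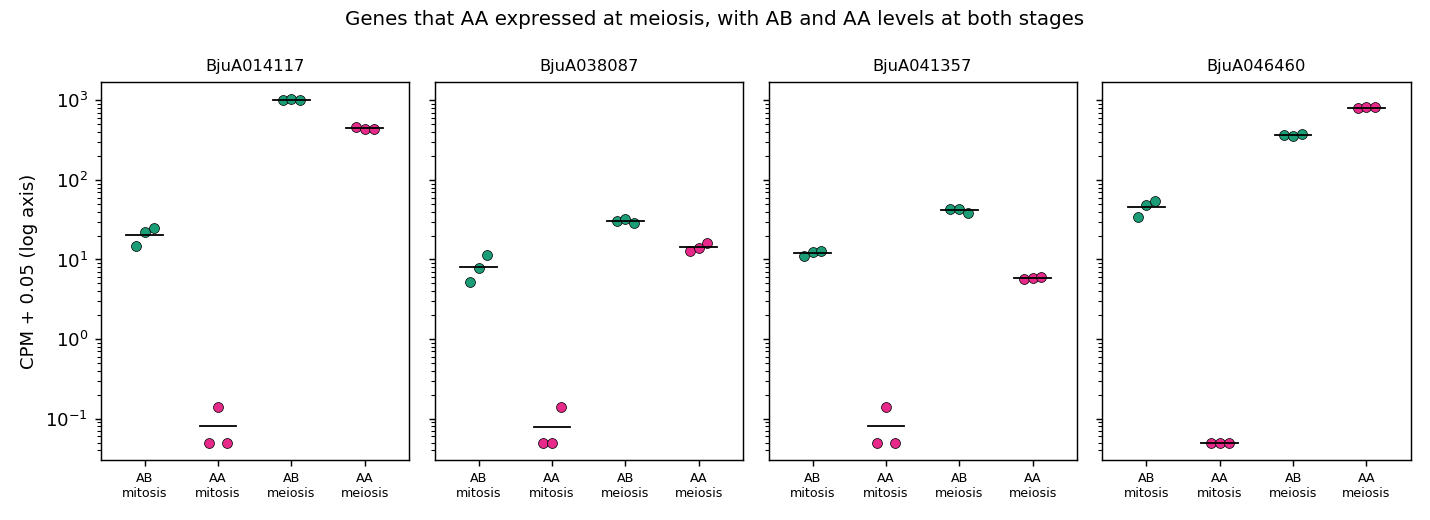
Points give CPM + 0.05 of single libraries on a log axis and bars give the mean of 3, for the 4 A-labelled mitosis members with at least 5 CPM in AA at meiosis. At mitosis AB lies between 5.15 and 53.7 CPM and AA at 0 or 1 count, while at meiosis both plants hold the transcript.

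The share of members among all genes that were as silent in the parents was also counted by parental level at the other stage, without a test. Of 537 identifiers within 3 counts in both parents at mitosis and at 5 CPM or more in a parent at meiosis, 4 (0.745%) were members. Of 17114 identifiers with 0 parental counts at meiosis, 16 (0.0935%) were. Between these lay 13 of 3783 identifiers (0.344%) with a few parental counts within the limit and 15 of 4155 (0.361%) above the limit but under 5 CPM. Most of these identifiers were hardly read in AB either. More than 3 AB counts at mitosis were held by 159 of the 537 and 610 of the 17114. The same held for 357 of the 3783 and 900 of the 4155. The shares are therefore not like for like, and no trend is read from them. In the other direction, of 1211 identifiers within the limit at meiosis and at 5 CPM or more in a parent at mitosis, 0 were meiosis members, and of 17714 with 0 parental counts at mitosis, 19 (0.107%) were. Here 175 of the 1211 and 581 of the 17714 had more than 3 AB counts at meiosis.

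The 35 members that stayed within the limit had few stray parental reads by their definition. Their counts are given as values alone. At mitosis AB held 12648 counts of these genes, against 4 counts in AA, in 2 genes, and 4 in BB, in 3 genes. At meiosis AB held 13922 counts of them, against 23 counts in AA, in 13 genes, and 9 in BB, in 4 genes. Of the 21 B-labelled genes among them, 9 had counts in AA over both stages and 1 had counts in BB. In the AA libraries at meiosis, 7, 2 and 10 of the 26 meiosis members had a count in replicates 1, 2 and 3, so replicate 2 was nearly free of them.

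The 16 genes chosen at both stages had to reach the same minimum in AB at each, so their change between stages was not fixed by the rule. At mitosis, relative to meiosis, 3 were called higher and 8 lower in AB in edgeR's test, and 5 were not called. Over all genes tested, 38.7% were called higher and 37.2% lower. The median log2 change of the 16 genes was -0.32, against 0.02 over all genes. BjuB004893 fell most, with 6.48, 5.81 and 6.58 CPM at mitosis, against 43.6, 41.7 and 45.6 CPM at meiosis, and its log2 change was -2.79 (SE 0.14, adjusted p = 5.37e-16 in edgeR's test). BjuA038369 followed, with 9.24, 10.7 and 7.73 CPM at mitosis, against the values at meiosis given above, a log2 change of -1.45 (SE 0.16). BjuB026012 rose, with 15.5, 13.4 and 17.2 CPM at mitosis, against 7.42, 9.67 and 7.42 CPM at meiosis, and its log2 change was 0.91 (SE 0.19, adjusted p = 0.000109 in edgeR's test). BjuB008824 rose as well, with 12.5, 13.7 and 13.6 CPM at mitosis, against 7.42, 8.04 and 5.88 CPM at meiosis, a log2 change of 0.90 (SE 0.21). The libraries of both stages did not overlap in any of these 4 genes. As they were named for the largest called changes, this was to a large part fixed. The share over all genes was not counted. BjuB015582, the remaining gene called higher, held 7.46, 8.54 and 6.74 CPM at mitosis, against 4.66, 4.88 and 5.63 CPM at meiosis. BjuB035426, a B gene of 270 bases singled out after its values were seen, held 13.9, 13.04 and 11.8 CPM at mitosis, against 31.7, 35.0 and 32.6 CPM at meiosis. BjuO007838 was the steadiest of the 16, with 17.6, 20.3 and 19.4 CPM at mitosis, against 18.1, 20.4 and 19.7 CPM at meiosis. Its log2 change was -0.02 (SE 0.15). With a minimum of 2-fold, 3 of the 16 were lower, and by that rule neither BjuB026012 nor BjuB008824 was called higher.

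For genes chosen at a single stage the direction in AB is in part fixed by the minimum and is given as values alone. Of the 10 chosen at meiosis alone, the median log2 difference of mitosis from meiosis was -1.41, with a range of -3.36 to -0.25. Of the 32 chosen at mitosis alone it was 1.20, with a range of -5.62 to 9.89. BjuO005534, singled out after its values were seen, held 45.1, 41.1 and 41.9 CPM in AB at mitosis, against 1.04, 0.941 and 0.341 CPM at meiosis, with 0 counts in all 12 parental libraries. It was the most abundant of the genes that AB held mainly at mitosis and no parental library held at all.

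**Figure D5:**
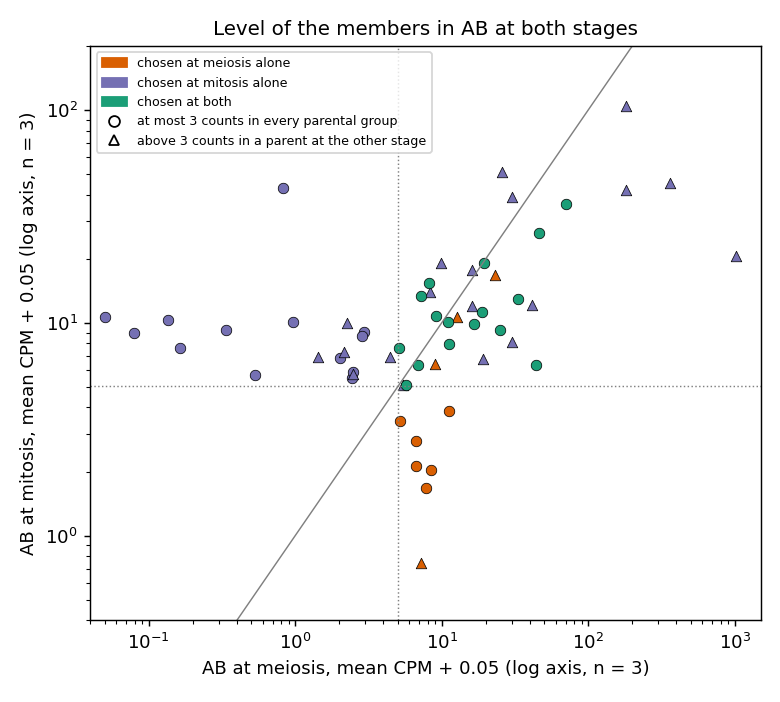
Each point is a member, placed by its mean CPM + 0.05 over 3 AB libraries at meiosis (x axis) and at mitosis (y axis), on log axes. Dotted lines mark the AB minimum of 5 CPM and the diagonal marks equal levels. The 16 genes chosen at both stages lie in the upper right within about the same range, and the genes chosen at mitosis alone spread from 0 to 1015 CPM at meiosis.

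The choice was repeated on 2 replicates and read in the third. As the libraries of a group may be technical repeats, this is a description and no independent check. Of 48 genes chosen at mitosis on replicates 1 and 2, 43 (89.6%) had at least 5 CPM in AB and at most 1 count in each parent in replicate 3. At meiosis 17 of 27 (63.0%) did. The shortfall at meiosis lay mostly on the parental side, where 18 of the 27 met the limit of 1 count, while 26 of the 27 reached 5 CPM in AB. The AB counts of these 27 genes in replicate 3 were at least 58, and their parental counts there at most 4.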

How the data were processed

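The authors deposited raw counts per gene identifier and FPKM values for 18 libraries. HTSeq 0.6.0, TopHat2, HISAT2 2.1.0 and Bowtie 1.0.1 are named in the submitters' processing notes without their roles. Genome build and strand setting: not given in the sources used here. Reads from gene copies that are nearly alike on A and B may have been counted for either. The deposited FPKM equalled the count divided by library total and a fixed length, and lengths are called coding lengths because 99.9% of them divide by 3. One library of AA at mitosis appeared in a pair of identical columns, of which 1 column was not used. Titles gave each library its group and number.

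The members and lists were chosen with earlier results of these data known. Counts of all identifiers were fitted with edgeR 4.0.16 in R 4.3.3, with 6 group means, the filter for low counts by group and library totals without further factors, since a parent has reads of 1 genome. The common dispersion was 0.00743. SEs follow from the F statistic of each test. P-values were adjusted over all 48507 genes. The procedure was tested on simulated data. Its changed genes were drawn among genes that AA read at mitosis, so it does not bear on genes near the floor. Named genes are those with the highest AB level per choosing stage, label or both stages, up to 2 higher and 2 lower per test of at least 10 CPM in either group, those with the highest level of each parent at the other stage, those at the edges of the rule, and 2 with the largest spread between AB libraries; others are named as exceptions. Alternatives were DESeq2 1.42.0, TMM and RLE factors, scaling within the label, no filter, a replicate block, only the groups of a contrast, a minimum of 2-fold, limma 3.58.1 on log2(FPKM + 1), other limits of the rule, and each library left out in turn.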

Additional observations from a re-analysis of the deposited data

Results flagged for a closer look

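In 2 members every AB library lay on one side of a parent at one stage and on the other side at the other stage; the difference between stages was not tested, since the rule fixed one of its sides. BjuB038946 was chosen at meiosis for being above BB. At mitosis it was lower in AB than in BB on library totals, with a log2 difference of -2.38, and no value scaled on B genes is given. BjuA046460 was chosen at mitosis for being above AA, and at meiosis it was lower in AB than in AA, with a log2 difference of -1.15; scaled on A genes alone it was -0.14 and not called.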

How the results depend on the processing

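The number of members followed the limits of the rule. At meiosis, where it was 26, it became 70 with an AB minimum of 2 CPM, 13 with 10 CPM, 8 with a parental limit of 0 counts and 48 with a limit of 10 counts. At mitosis, where it was 48, these settings gave 86, 24, 31 and 57. With 5 CPM asked of every AB library the numbers were 23 and 43, and with TMM factors 26 and 57. Leaving out each library in turn gave 24 to 29 at meiosis and 46 to 50 at mitosis. Of the calls at the stage that did not choose the genes, the 25 meiosis members above both parents ranged from 24 to 25, and the 43 mitosis members from 31 (scaling within the label) to 43. Without each library in turn they were 25 to 25 and 41 to 43. Against AA and BB alone, leaving out a library gave 26 to 26 and 25 to 25 for meiosis members, and 42 to 44 and 43 to 44 for mitosis members. Counted after seeing the data over the genes within 3 counts in all parental groups alone, 22 of 22 meiosis members and 26 of 29 mitosis members were above both parents, fewer because fewer genes enter; that set is defined by parental counts at the stage tested, so these counts are no check of stability. Among the 16 genes chosen at both stages, a minimum of 2-fold left 0 of the 3 higher and 3 of the 8 lower, by construction; without each library in turn the numbers were 2 to 3 and 7 to 8. TMM factors moved the median change of all genes between AB stages to 0.35, from 0.02, and gave 4 higher and 7 lower. They moved the median of AB against AA at mitosis to 2.45, and RLE factors to 0.81, from 1.42. With the replicate number as a block, 25 and 42 members were above both parents, and 3 and 8 changed between stages. Same-numbered libraries did not deviate together (0 of 15 correlations over 0.1, from -0.018 to 0.020), so they share only a number. Summed over both stages, a gene chosen at both counts at each. In such sums 60 of 75 choices on replicates 1 and 2 were seen again in the third. On replicates 1 and 3 it was 65 of 76, and on replicates 2 and 3 it was 58 of 75. At meiosis the shares were 63.0%, 71.4% and 64.3%, and at mitosis 89.6%, 93.75% and 85.1%, in the same order of pairs. Parental counts under 3 per group are not resolved at this depth.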

Other observations

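Among genes chosen on 2 replicates, BjuA005040, no member, had the highest parental count in the third. At meiosis it had 53 counts in AA replicate 1 and 0 in replicates 2 and 3, and its AB libraries held 4.74, 9.50 and 0.597 CPM. Over all 3 AB libraries its mean was under 5 CPM, so it missed the AB minimum as well. BjuO007772 at mitosis had 12 counts in BB replicate 1 and 1 in each of the other BB libraries, with 5.77, 7.49 and 6.25 CPM in AB.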
